A study of Mus musculus with 9 samples.

Results

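The semaphorins, plexins and neuropilins are a ligand and receptor family that was followed here through mouse libraries labelled as RAW264.7 macrophages. Members were chosen by gene symbol (Sema with a digit and a letter, Plxn with a letter and an optional digit, Nrp1 and Nrp2), protein-coding genes only. Within the family, the only measured value used was the FPKM floor for calling a member detected. The family itself was taken up with earlier results of these data known, among them the low Sema4f level in TNF libraries. This gave 31 genes of the 56289 gene identifiers in the deposited table: 20 semaphorins, 9 plexins and 2 neuropilins. Messenger RNA of 9 libraries was sequenced, 3 per group, to find genes that set treated cells apart from controls. The TNF plus WBG group received Wang Bi granules (WBG, a Chinese herbal preparation used in rheumatoid arthritis) and tumour necrosis factor alpha (TNF-α) for 24 h, the TNF group received TNF-α alone for 24 h, and the untreated group received neither. All 3 groups share the line (strain BALB/c, cultured in DMEM with fetal bovine serum), doses are not given in the labels, and no library with WBG alone was analysed here. The labels do not say that the 3 libraries of a group came from separate cultures, so a p-value here speaks to the spread of these libraries alone, which may be technical.

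Levels are FPKM, fragments per kilobase of gene model per mega fragments, as the authors deposited them. No counts were given. If the smallest step between values is 1 fragment, the libraries hold 18.9 to 26.1 M (mega) fragments, and 12611 to 12737 genes reached 1 FPKM in each. The macrophage label was set against marker genes. Of 20 macrophage markers, 3 had a mean of at least 1 FPKM (Cd14, Mertk and Cd68), and 5 were listed at 0 in all 9 libraries (Ptprc, Itgam, Adgre1, Tyrobp and C1qa). Of 14 fibroblast markers, 10 had a mean of at least 1 FPKM, among them the collagen gene Col1a1 at 791 to 1020 FPKM, whereas Lum was at 0 throughout and Thy1 and Fap averaged 0.0117 and 0.046 FPKM. All 6 endothelial markers averaged below 1 FPKM, and Emcn was at 0 throughout. The data therefore go against the macrophage label, and the libraries are called by their labels and treatment throughout.

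Semaphorins are secreted or membrane-bound guidance proteins, first known for repelling growing axons, and plexins are their receptors. Most secreted class 3 semaphorins bind a neuropilin, which holds the complex together with an A plexin, whereas membrane-bound semaphorins bind plexins directly. The plexin's intracellular part switches off Ras-family GTPases, which loosens adhesion. In immune and connective tissue the family is known for steering cell migration, vessel growth and bone turnover, and several members have been studied in inflamed joints.

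The promoters of the 4 members with the largest differences between TNF and untreated libraries are shown first, because 3 of these genes were lower and 1 was higher in every TNF library than in every untreated one. The windows run from 250 bases before to 50 bases after the annotated start, 5′ to 3′ on the gene's strand, from RefSeq on GRCm38.p6. No source used here gives the build behind the deposited table, and the coordinates belong to RefSeq alone. Capitals mark the GC box GGGCGG and the CCAAT box CCAAT on either strand. The 4 windows lie at chr6:82939720-82940019 (Sema4f, ENSMUSG00000000627, minus strand), chrX:73756853-73757152 (Plxnb3, ENSMUSG00000031385, plus strand), chr5:14025026-14025325 (Sema3e, ENSMUSG00000063531, plus strand) and chr6:115994956-115995255 (Plxnd1, ENSMUSG00000030123, minus strand).
Sema4f: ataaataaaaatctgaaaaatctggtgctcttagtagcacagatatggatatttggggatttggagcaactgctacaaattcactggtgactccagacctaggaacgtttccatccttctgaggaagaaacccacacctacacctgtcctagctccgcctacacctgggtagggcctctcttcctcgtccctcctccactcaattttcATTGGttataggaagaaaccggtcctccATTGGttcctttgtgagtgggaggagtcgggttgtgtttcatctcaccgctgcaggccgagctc
Plxnb3: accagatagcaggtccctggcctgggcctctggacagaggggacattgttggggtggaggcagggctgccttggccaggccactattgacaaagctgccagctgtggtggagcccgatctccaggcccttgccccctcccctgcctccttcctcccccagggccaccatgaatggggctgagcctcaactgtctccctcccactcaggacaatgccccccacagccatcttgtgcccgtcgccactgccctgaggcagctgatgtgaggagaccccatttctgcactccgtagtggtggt
Sema3e: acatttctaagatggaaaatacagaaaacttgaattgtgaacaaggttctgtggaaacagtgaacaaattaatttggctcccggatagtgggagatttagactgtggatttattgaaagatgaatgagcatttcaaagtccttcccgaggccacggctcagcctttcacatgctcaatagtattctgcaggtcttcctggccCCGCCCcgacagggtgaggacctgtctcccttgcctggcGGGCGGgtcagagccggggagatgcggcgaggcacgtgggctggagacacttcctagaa
Plxnd1: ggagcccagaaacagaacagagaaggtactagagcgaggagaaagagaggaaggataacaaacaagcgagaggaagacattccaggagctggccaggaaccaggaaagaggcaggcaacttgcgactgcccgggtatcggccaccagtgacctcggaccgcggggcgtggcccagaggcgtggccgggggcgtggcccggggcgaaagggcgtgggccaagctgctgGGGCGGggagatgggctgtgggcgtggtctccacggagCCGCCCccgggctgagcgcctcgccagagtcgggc

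The 4 windows differ in composition. The Sema4f window is 48.7% G or C and holds 2 CCAAT boxes and no GC box, and the Plxnb3 window is 63.7% G or C and holds neither. The Sema3e window (50.7% G or C) and the Plxnd1 window (67.0%) hold 2 GC boxes each. None of the 4 holds the NF-kB consensus, searched as its usual 10-letter form, or the AP-1 site TGANTCA, on either strand. Among all 32851 promoter windows of the table, 8.46% hold the NF-kB consensus and 7.81% the AP-1 site, while 35.7% hold a GC box and 37.4% a CCAAT box. Windows were found for 26 of the 31 members, and their 37 windows held the NF-kB consensus in 5, the AP-1 site in 3, a GC box in 27 and a CCAAT box in 7. The NF-kB matches lay in windows of Plxna3, Sema4a, Sema4b, Sema4c and Sema6c. Of these, Sema4b differed past the threshold in 1 comparison and Plxna3, Sema4c and Sema6c in none. Sema4a was below the detection floor and was not tested. The member windows were richer in G and C, with a median of 63.7% against 52.7% over all windows. A match is a run of letters and no evidence of a bound factor, and a window without one says nothing about the factor.

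Of the 31 members, 24 were detected, which means that 3 or more of the 9 libraries reached 1 FPKM: 15 semaphorins, 7 plexins and both neuropilins. All 24 were above 1 FPKM in all 9 libraries, so none of them passed through a single group. The whole table held 13026 genes by the same rule. Of the 7 members below it, Sema6d, a ligand of Plxna1, lay closest with 0.576 to 1.07 FPKM, and Plxna4, a receptor for class 3 and class 6 semaphorins, followed with 0.680 to 0.956 FPKM. Sema3d, a secreted ligand, lay at 0.397 to 0.950 FPKM. Sema4a, an immune-cell semaphorin, and Plxnc1, the receptor of Sema7a, stayed at or below 0.437 and 0.650 FPKM. Sema3g, an endothelial class 3 ligand, reached 0.107 FPKM and Sema5b, a membrane ligand, 0.0265 FPKM. Just inside the threshold were Sema3a, whose lowest library had 1.64 FPKM, and Sema5a, whose lowest had 1.82 FPKM.

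Plxnb2 had the highest level of the family in all 3 groups, and Nrp2 came next. Plxnb2, a receptor for Sema4c and Sema4g, had 144, 142 and 144 FPKM in TNF plus WBG libraries, 151, 148 and 156 FPKM in TNF libraries and 148, 147 and 144 FPKM in untreated libraries. It made up 63.8 ± 0.390%, 64.7 ± 0.684% and 65.6 ± 1.54% of the summed FPKM of the 9 plexins in TNF plus WBG, TNF and untreated libraries (SD, n = 3 each). Nrp2, the co-receptor for Sema3f and for vascular growth factors, had 84.5, 81.3 and 85.6 FPKM with TNF plus WBG, 91.3, 89.2 and 92.6 FPKM with TNF and 78.6, 80.8 and 85.0 FPKM untreated. Sema3f and Sema4c followed at 31.3 to 64.6 FPKM, and the order of these 2 differed between libraries. Plxnd1, Plxna1, Sema3b, Sema3c and Nrp1 lay at 14.3 to 30.6 FPKM, a range that Sema3e, Sema4b and Sema4f entered in some libraries. At the low end, Sema3a, Sema4d, Sema4g, Sema5a, Sema6a, Sema6b, Sema6c and Sema7a lay at 1.64 to 6.57 FPKM in the 9 libraries.

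**Figure D1:**
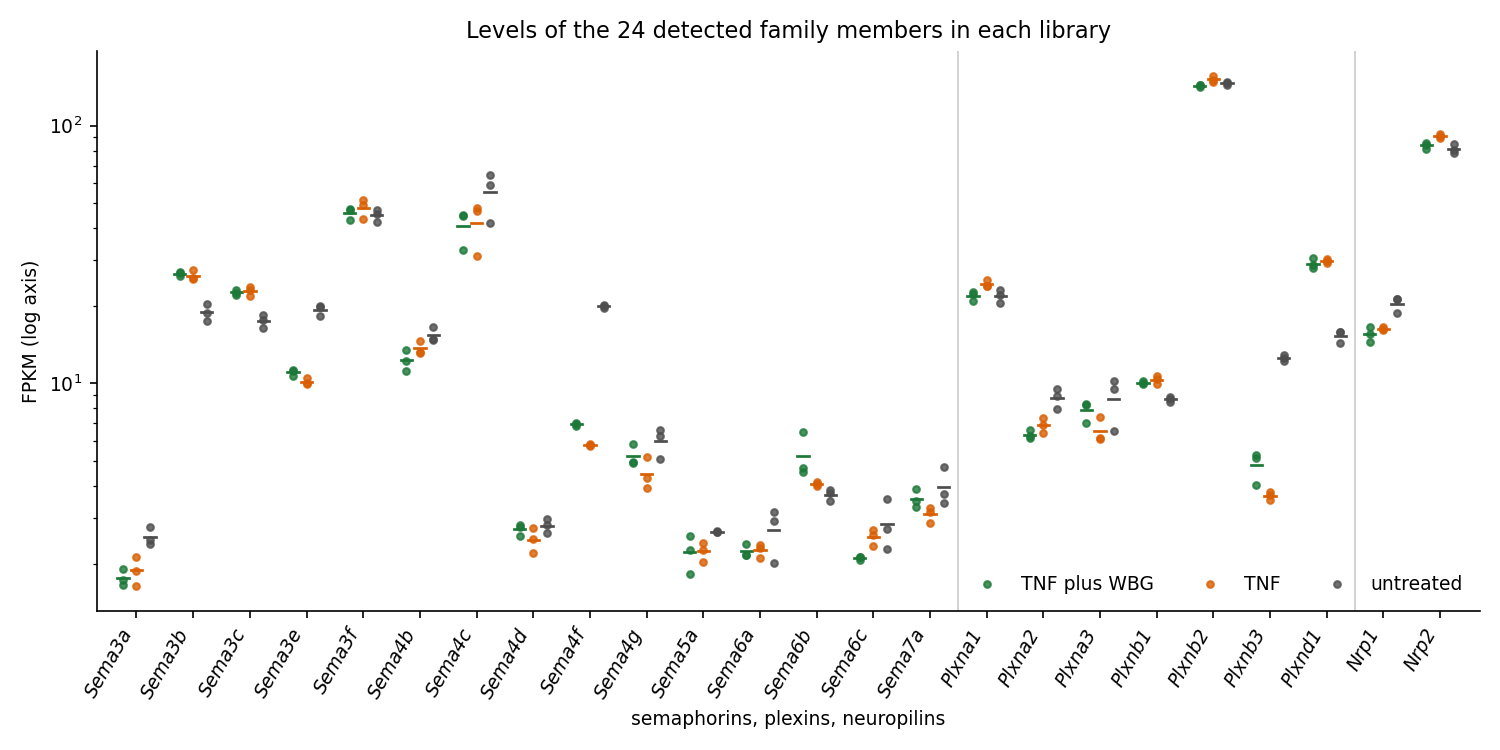
FPKM of the 24 detected members in each library on a log axis, semaphorins left, plexins in the middle and neuropilins right, with 3 points per group and a bar at the mean. Sema4f, Plxnb3, Sema3e and Plxnd1 show untreated libraries far from the other 6, while Plxnb2 and Sema3f stay at nearly the same height in all 3 groups.

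With TNF alone for 24 h the family shifted in both directions. Of the 24 detected members, 5 were higher and 5 were lower than in untreated libraries by limma at an adjusted p under 0.05. Plxnd1 rose to 1.95 times its untreated level, and Sema3b, Sema3c, Plxnb1 and Nrp2 rose by less. Sema4f and Plxnb3 stood at 29.0% and 29.2% of their untreated levels, Sema3e at 52.5%, and Nrp1 and Plxna2 at 79.8% and 78.3%. The 5 higher members are 20.8% of those tested, beside 6.43% of all 13026 genes, and the 5 lower ones are again 20.8%, beside 4.21% of all genes. For 17 of the 24 (70.8%) the TNF and untreated libraries did not overlap, 8 of them higher and 9 lower with TNF, beside 30.0% of all genes. The median log2 fold change was -0.16 over the members and 0.00 over all genes, and the median absolute one was 0.28 over the members and 0.11 over all genes. Without untreated replicate 2, TNF replicate 1 or TNF replicate 2 the higher members numbered 3, and with replicate 2 or 3 of untreated or 3 of TNF left out the lower ones numbered 3. Sema4f was known to be low with TNF when the family was chosen, so its differences between TNF and the other groups are a description and it adds no support to the counts. Counted without it, after the data were seen, 4 of 23 members (17.4%) were lower and 16 (69.6%) did not overlap. Other earlier results of these data were also known at the choice, so these counts too are a description.

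Among the secreted class 3 ligands, 1 fell, 2 rose and 2 did not pass the test. Sema3e, which binds Plxnd1 without a neuropilin and repels growing vessels, had 11.2, 10.7 and 11.3 FPKM in TNF plus WBG libraries, 10.1, 9.92 and 10.5 FPKM in TNF libraries and 19.8, 18.3 and 19.9 FPKM in untreated libraries. Every treated library lay below every untreated one. The log2 fold change, on the scale of log2(FPKM + 1) used for all such values, was -0.87 ± 0.05 for TNF against untreated (± SE; limma, Benjamini-Hochberg adjusted p = 9.79e-06). In bulk RNA such a difference cannot be told apart from a change in the share of cells that make the transcript.

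Sema3b, a secreted semaphorin known in human lung as a growth suppressor, moved the other way. It had 26.1, 26.7 and 27.0 FPKM with TNF plus WBG, 25.4, 25.7 and 27.5 FPKM with TNF and 17.5, 20.3 and 18.8 FPKM untreated, a log2 fold change of 0.45 ± 0.06 for TNF against untreated (adjusted p = 0.00118). Sema3c, a ligand needed for the heart's outflow tract in the mouse, had 23.1, 22.4 and 22.1 FPKM with TNF plus WBG, 23.6, 23.1 and 21.9 FPKM with TNF and 16.4, 17.6 and 18.4 FPKM untreated. Its log2 fold change for TNF against untreated was 0.37 ± 0.05 (adjusted p = 0.00211). For both genes the untreated libraries were the 3 lowest of the 9. The genes of Sema3c, Sema3e, Sema3a and Sema3d all lie on mouse chromosome 5.

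Sema3f and Sema3a did not pass the test with TNF. Sema3f, the Nrp2 ligand with the highest level of the class, had 47.7, 47.1 and 43.0 FPKM with TNF plus WBG, 49.3, 51.4 and 43.3 FPKM with TNF and 42.3, 46.9 and 45.5 FPKM untreated, and the groups overlapped. The 95% interval of its log2 difference between TNF and untreated was -0.07 to 0.25. Sema3a, the Nrp1 ligand first described as a collapser of axon growth cones, had 1.91, 1.72 and 1.65 FPKM with TNF plus WBG, 1.64, 1.87 and 2.13 FPKM with TNF and 2.47, 2.38 and 2.77 FPKM untreated. The untreated libraries were the 3 highest, and its log2 fold change of -0.30 ± 0.09 for TNF against untreated had an adjusted p of 0.0698.

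Among the membrane-bound class 4 ligands, Sema4f stood apart. Sema4f, a semaphorin studied mainly in neurons and Schwann cells, had 6.86, 7.04 and 6.97 FPKM in TNF plus WBG libraries, 5.83, 5.78 and 5.72 FPKM in TNF libraries and 19.6, 20.2 and 20.0 FPKM in untreated libraries. The 3 groups did not overlap, and within a group the libraries differed little, with coefficients of variation of 1.27%, 0.961% and 1.72%. The log2 difference of TNF from untreated was -1.63 ± 0.04. The FPKM of 10 genes used as neuron markers was also summed. The sum was 36.5 to 39.6 with TNF plus WBG, 31.7 to 35.9 with TNF and 74.3 to 75.8 untreated. It is weighted to Tubb3 (15.6 to 57.9 FPKM over the 9 libraries) and does not show that the other genes were lower. Of these 10 genes 4 had a mean of at least 1 FPKM (Tubb3, Map2, Nefl and Nefm) and Rbfox3 was listed at 0 throughout. The part of these genes in the differences of Sema4f, Plxnb3, Sema3e and Plxnd1 was not tested.

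Sema4b and Sema4c were the other class 4 members above 10 FPKM. Sema4b, a membrane-bound ligand also found at synapses, had 12.2, 11.2 and 13.5 FPKM with TNF plus WBG, 14.6, 13.1 and 13.3 FPKM with TNF and 14.9, 14.8 and 16.5 FPKM untreated, with an adjusted p of 0.262 for TNF against untreated. Its untreated libraries were the 3 highest by a small margin. Sema4c, a Plxnb2 ligand, had 44.8, 44.4 and 33.1 FPKM with TNF plus WBG, 46.7, 47.9 and 31.3 FPKM with TNF and 59.1, 42.1 and 64.6 FPKM untreated. Each group held 1 library well below its other members, the groups overlapped, and the 95% interval of the log2 difference between TNF and untreated was wide (-0.86 to 0.08). Exons of Sema4c overlap an antisense transcript, D430040D24Rik, and no source used here says whether strand was used.

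The remaining ligands lay below 7 FPKM and none passed the test. Sema4g, another Plxnb2 ligand, averaged 5.23 ± 0.498 FPKM with TNF plus WBG, 4.47 ± 0.653 FPKM with TNF and 5.97 ± 0.766 FPKM untreated (SD, n = 3 each), with an adjusted p of 0.0914 for TNF against untreated. Sema7a, a lipid-anchored ligand of Plxnc1 and of integrins, averaged 3.58 ± 0.302, 3.11 ± 0.213 and 3.97 ± 0.691 FPKM in the TNF plus WBG, TNF and untreated groups (adjusted p = 0.162 for TNF against untreated). Sema4d, the Plxnb1 ligand known from lymphocytes, spanned 2.20 to 2.97 FPKM in the 9 libraries. Sema5a, a ligand of Plxnb3 that carries thrombospondin repeats, spanned 1.82 to 2.67 FPKM. The class 6 ligands, which bind A plexins, spanned 2.00 to 3.17 FPKM for Sema6a, 3.48 to 6.50 FPKM for Sema6b and 2.06 to 3.57 FPKM for Sema6c.

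Among the receptors, Plxnb3 and Plxnd1 differed most and in opposite directions. Plxnb3, a receptor for Sema5a that is best known from the glia of the brain, had 5.27, 5.14 and 4.04 FPKM in TNF plus WBG libraries, 3.78, 3.69 and 3.53 FPKM in TNF libraries and 12.6, 12.8 and 12.2 FPKM in untreated libraries. The untreated libraries were the 3 highest and the TNF libraries the 3 lowest, with no overlap among the groups. The log2 fold change of TNF against untreated was -1.54 ± 0.09 (limma adjusted p = 7.92e-06). Plxnd1, the receptor of Sema3e, had 28.8, 30.6 and 28.2 FPKM with TNF plus WBG, 30.4, 29.8 and 29.3 FPKM with TNF and 14.3, 15.8 and 15.9 FPKM untreated. Both treated groups lay above every untreated library and overlapped each other, and the log2 fold change of TNF against untreated was 0.92 ± 0.05 (adjusted p = 8.93e-06).

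The ligand Sema3e and its receptor Plxnd1 thus stood in opposite order in treated and untreated libraries. The Sema3e level per Plxnd1 level, both per length, was 0.389, 0.349 and 0.400 with TNF plus WBG, 0.330, 0.333 and 0.358 with TNF, and 1.38, 1.16 and 1.255 untreated. Its mean was 0.379 ± 0.0265 with TNF plus WBG, 0.340 ± 0.0154 with TNF and 1.265 ± 0.110 untreated (SD, n = 3 each). Sema3e exceeded Plxnd1 in all 3 untreated libraries and in none of the 6 others. The ratio was chosen after the values were seen and carries no test.

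**Figure D2:**
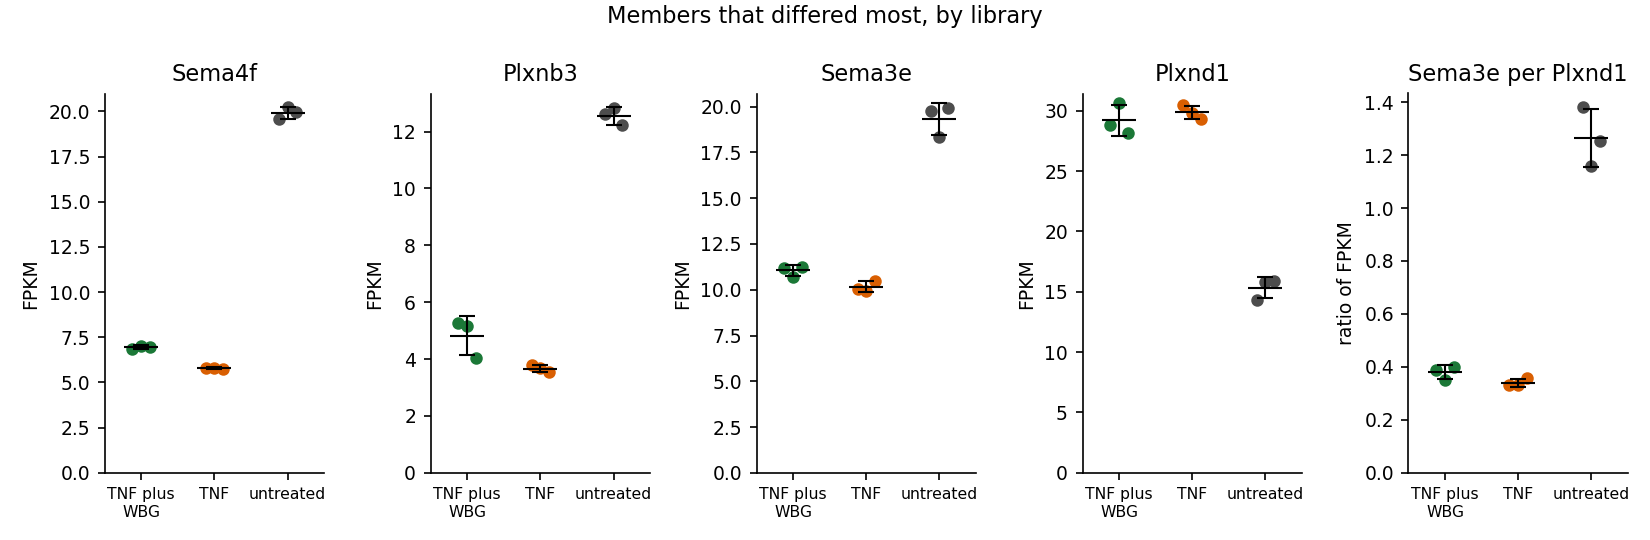
FPKM of Sema4f, Plxnb3, Sema3e and Plxnd1 and the ratio of Sema3e to Plxnd1 in each library, from 0 upward, with points for libraries, long bars for group means and error bars of 1 SD (n = 3). Untreated libraries are highest in 3 of the 4 genes and lowest in Plxnd1, and the ratio is above 1 in the 3 untreated libraries alone.

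Of the other plexins, Plxnb1 rose and Plxna2 fell by small amounts. Plxnb1, the receptor of Sema4d that activates RhoA through its exchange factors, had 10.2, 9.94 and 10.0 FPKM with TNF plus WBG, 10.4, 10.6 and 9.98 FPKM with TNF and 8.85, 8.49 and 8.68 FPKM untreated, a log2 fold change of 0.23 ± 0.05 with TNF against untreated (adjusted p = 0.0158). Plxna2, a receptor for class 3 semaphorins and for Sema6a, had 6.58, 6.23 and 6.13 FPKM with TNF plus WBG, 6.44, 7.32 and 6.93 FPKM with TNF and 7.93, 8.93 and 9.55 FPKM untreated, a log2 fold change of -0.31 ± 0.08 (adjusted p = 0.0319). The treated and untreated libraries did not overlap for either gene. The call of Plxnb1 was lost on leaving out replicate 2 or 3 of untreated, or 1 or 2 of TNF (adjusted p of 0.0503 to 0.0611). That of Plxna2 was lost on leaving out replicate 2 or 3 of untreated, or 1 or 3 of TNF (0.0850 to 0.107).

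Plxna1, Plxna3 and Plxnb2 did not pass the test with TNF. Plxna1, a partner of both neuropilins, had 22.3, 20.9 and 22.6 FPKM with TNF plus WBG, 23.9, 24.0 and 25.1 FPKM with TNF and 20.6, 23.1 and 22.0 FPKM untreated. Its TNF libraries were the 3 highest of the 9, and the adjusted p against untreated was 0.132. Plxna3, a partner of Nrp2, averaged 7.85 ± 0.716 FPKM with TNF plus WBG, 6.55 ± 0.754 FPKM with TNF and 8.73 ± 1.94 FPKM untreated (SD, n = 3 each), and untreated replicate 1 at 6.52 FPKM lay among the TNF ones. Without that library Plxna3 passed the test at a log2 fold change of -0.53 (adjusted p = 0.0207). Plxnb2 differed by a log2 of 0.05 ± 0.03 between TNF and untreated (adjusted p = 0.368), with an interval of -0.02 to 0.12. Plxna1 and Plxnb1 each overlap an antisense transcript in their exons.

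The neuropilins moved apart. Nrp1, the co-receptor for Sema3a and for vascular endothelial growth factor, had 15.6, 14.5 and 16.6 FPKM with TNF plus WBG, 16.6, 16.2 and 16.1 FPKM with TNF and 18.8, 21.2 and 21.3 FPKM untreated. The untreated libraries were the 3 highest, and the log2 fold change of TNF against untreated was -0.31 ± 0.06 (limma adjusted p = 0.0174). For Nrp2, whose levels are given above, the 3 TNF libraries were the highest of the 9, and the log2 fold change was 0.16 ± 0.04 (adjusted p = 0.0349). The Nrp2 level per Nrp1 level was 5.40 ± 0.228 with TNF plus WBG, 5.59 ± 0.151 with TNF and 3.998 ± 0.193 untreated (SD, n = 3 each), a ratio chosen after the values were seen. The call of Nrp1 was lost on leaving out replicate 2 or 3 of untreated or of TNF (adjusted p of 0.0557 to 0.0665). That of Nrp2 was lost without untreated replicate 1 or 2, any 1 of the TNF replicates or TNF plus WBG replicate 1 (0.0559 to 0.113).

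Summed over the family, the plexin level was highest in the 3 TNF libraries. For all semaphorins and for class 4, the lack of overlap between TNF and untreated sums rested on Sema4f. Its low level with TNF was known beforehand. Without Sema4f the mean sums were still highest untreated. They were 186, 187.8 and 200.3 FPKM for all semaphorins with TNF plus WBG, TNF and untreated, and 61.2, 62.8 and 79.7 FPKM for class 4. The 20 semaphorins summed to 193 ± 9.30 FPKM with TNF plus WBG, 193.5 ± 13.2 FPKM with TNF and 220.3 ± 13.4 FPKM untreated (SD, n = 3 each), with no overlap between treated and untreated libraries. Without Sema4f, an alternative chosen after seeing the data, the sums were 175.3 to 191.9 FPKM with TNF plus WBG, 172.6 to 196.8 FPKM with TNF and 189.4 to 215.3 FPKM untreated, and the groups overlapped. The 6 class 4 semaphorins summed to 68.1 ± 5.82 FPKM with TNF plus WBG, 68.6 ± 9.96 FPKM with TNF and 99.6 ± 12.2 FPKM untreated, again with no overlap between treated and untreated libraries. Without Sema4f these were 54.4 to 64.8 FPKM with TNF plus WBG, 51.4 to 68.97 FPKM with TNF and 66.3 to 90.7 FPKM untreated. TNF and untreated libraries then overlapped, and TNF plus WBG and untreated libraries did not. The 7 class 3 semaphorins summed to 108.6 ± 2.61 FPKM with TNF plus WBG, 109.8 ± 3.65 FPKM with TNF and 104 ± 3.92 FPKM untreated, and here the groups overlapped. The 9 plexins summed to 224.5 ± 1.83 FPKM with TNF plus WBG, 234.2 ± 3.40 FPKM with TNF and 223.2 ± 3.50 FPKM untreated. These sums are weighted to the members with the highest levels and carry no test.

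With TNF plus WBG against TNF no member passed the test. The 4 largest log2 differences were those of Plxnb3, Sema6b, Sema4f and Plxna3, all higher with WBG, followed by Sema4g at 0.19 and Sema6c at -0.19. By limma 0 of 24 members were higher, beside 0.0691% of all 13026 genes, and 0 were lower, beside 0.0307%. Without Sema4f, 5 of 23 members (21.7%) had an unadjusted p under 0.05 (Plxnb3, Sema6b, Nrp2, Plxna1 and Plxnb2), beside 1180 of all 13026 genes (9.06%). For 8 of the 23 (34.8%) the groups did not overlap, 4 higher and 4 lower with WBG, beside 14.7% of all genes. The median absolute log2 difference was 0.10 over the members and 0.07 over all genes. This comparison and the TNF comparison above share the TNF libraries, and the values are therefore given side by side only.

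Plxnb3 averaged 4.82 ± 0.681 FPKM with TNF plus WBG and 3.67 ± 0.128 FPKM with TNF (SD, n = 3 each), a log2 difference of 0.31 ± 0.09 with a 95% interval of 0.12 to 0.51 (limma adjusted p = 0.414). All 3 TNF plus WBG libraries lay above the TNF libraries and below the untreated ones, but replicate 3 of TNF plus WBG, at 4.04 FPKM, lay closest to TNF. Sema4f averaged 6.96 ± 0.0882 FPKM with TNF plus WBG and 5.77 ± 0.0555 FPKM with TNF, a log2 difference of 0.23 ± 0.04 that is given as a description with no test. Its TNF plus WBG libraries also lay between the other groups, nearer to TNF. Sema3e averaged 11.1 ± 0.311 FPKM with TNF plus WBG and 10.2 ± 0.300 FPKM with TNF, again without overlap, and its adjusted p was 0.567. A p that misses the threshold does not show that the groups were alike.

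Sema6b, a class 6 ligand of A plexins shown per library after its values were seen, had 4.55, 6.50 and 4.69 FPKM with TNF plus WBG, 4.13, 4.06 and 4.01 FPKM with TNF and 3.76, 3.87 and 3.48 FPKM untreated. The TNF plus WBG libraries were the 3 highest, and 1 of them, replicate 2, stood well above the other 2 (log2 difference from TNF 0.29 ± 0.11, interval 0.04 to 0.54, adjusted p = 0.508). Nrp2, Plxna1 and Plxnb2 were lower in every TNF plus WBG library than in every TNF library. Their log2 differences were -0.12 ± 0.04, -0.14 ± 0.05 and -0.08 ± 0.03, with adjusted p of 0.481 for Nrp2 and 0.503 for both plexins. Plxnd1, by contrast, overlapped between the groups, at a log2 difference of -0.03 ± 0.05 with an interval of -0.15 to 0.09.

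**Figure D3:**
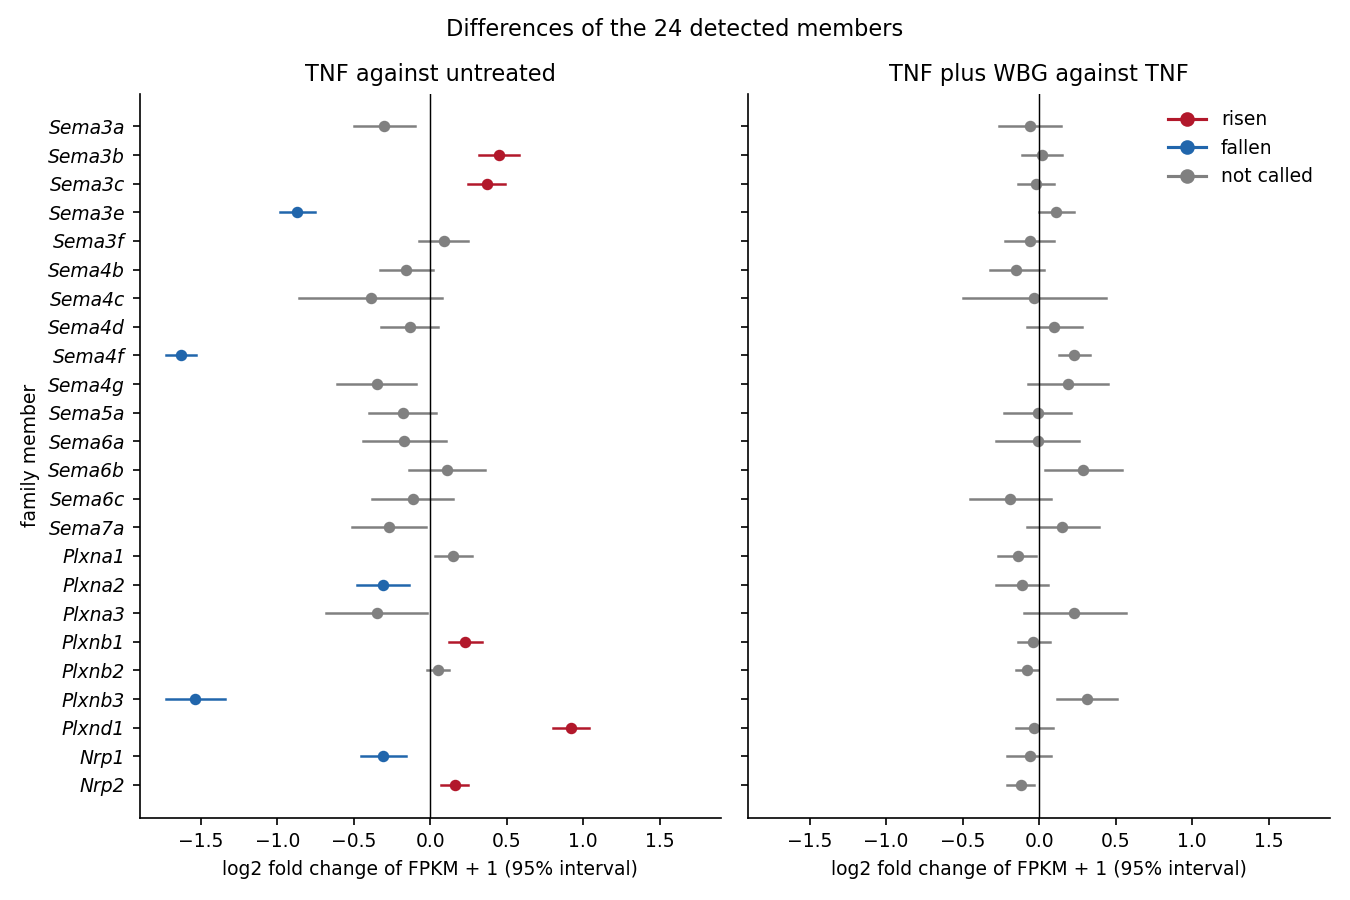
Log2 fold changes of FPKM + 1 with 95% intervals for the 24 detected members, TNF against untreated on the left and TNF plus WBG against TNF on the right, on the same axis. Points coloured as risen or fallen passed limma at an adjusted p under 0.05, 5 each on the left (Sema4f among the fallen as a description) and none on the right, where all values lie between -0.19 and 0.31.

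Against untreated libraries, Plxnd1, Sema3b, Sema3c and Plxnb1 were higher with TNF plus WBG, and Sema4f, Plxnb3, Sema3e, Plxna2, Nrp1, Sema3a and Sema4b were lower. These are 4 higher members (16.7%, beside 5.52% of all genes) and 7 lower ones (29.2%, beside 3.67%), Sema4f included, or 6 of 23 (26.1%) without it. For 15 members (62.5%) the groups did not overlap, 5 higher and 10 lower with TNF plus WBG, beside 28.1% of all genes. Without Sema4f these were 14 of 23 (60.9%), 5 higher and 9 lower. As limma log2 fold changes, the higher members had values of 0.89 ± 0.05 for Plxnd1 (adjusted p = 1.42e-05), 0.48 ± 0.06 for Sema3b (adjusted p = 0.000978), 0.35 ± 0.05 for Sema3c (adjusted p = 0.00318) and 0.19 ± 0.05 for Plxnb1 (adjusted p = 0.0357). Among the lower members the values were -1.23 ± 0.09 for Plxnb3 (adjusted p = 3.8e-05), -0.75 ± 0.05 for Sema3e (adjusted p = 2.92e-05), -0.42 ± 0.08 for Plxna2 (adjusted p = 0.00844) and -0.37 ± 0.06 for Nrp1 (adjusted p = 0.00731). Sema4f, described without a test, differed by -1.39 ± 0.04. The comparison shares its untreated libraries with TNF against untreated and its TNF plus WBG libraries with TNF plus WBG against TNF.

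Sema3a and Sema4b were called in this comparison alone. Sema3a fell by a log2 of 0.36 (adjusted p = 0.0384) and Sema4b by 0.30 (adjusted p = 0.0438), against log2 differences of -0.30 and -0.16 with TNF alone. The direct difference of TNF plus WBG from TNF was -0.06 ± 0.09 for Sema3a and -0.15 ± 0.08 for Sema4b, with adjusted p of 0.891 and 0.638. Nrp2 was not called, at 0.04 ± 0.04 (adjusted p = 0.617). The call of Plxnb1 was lost without any 1 library other than TNF replicate 3 (adjusted p of 0.0510 to 0.109). That of Sema3a was lost without any 1 library other than TNF replicate 1 or 3 (0.0614 to 0.129), and that of Sema4b without any 1 other than TNF replicate 1 or TNF plus WBG replicate 3 (0.0617 to 0.142).

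Partners of the pathway were read from the same fit: co-receptors, competing ligands, small GTPases and their regulators, kinases and cytoskeletal proteins, and proteases that process semaphorins or their receptors. Of 75 listed genes 60 were detected. The list was drawn up with earlier results of these data known, so its shares are a description and no independent sign. With TNF against untreated, 8 rose (13.3%, beside 6.43% of all genes), 5 fell (8.33%, beside 4.21%) and 47 did not pass the test, and for 33 (55.0%) the groups did not overlap, beside 30.0% of all genes. Nrcam is among the 5 although it was detected through its untreated libraries alone, and without it 4 of 59 (6.78%) fell. The median log2 fold change of the 60 was 0.01, and the median absolute one 0.15. With TNF plus WBG against TNF 0 of 60 were called in either direction by limma, 5 (8.33%) had an unadjusted p under 0.05, beside 9.06% of all genes, and 9 (15.0%) did not overlap, beside 14.7%, so these shares are near the background. With TNF plus WBG against untreated 6 rose (10.0%, beside 5.52% of all genes), 2 fell (3.33%, beside 3.67%; 1 of 59 without Nrcam) and 21 (35.0%) did not overlap, beside 28.1%. The counts with TNF moved with single libraries: 4 or 5 rose without any 1 library other than TNF replicate 3 or TNF plus WBG replicate 3, and 2 or 3 fell without any 1 of the untreated replicates or TNF replicate 1 or 3. Without untreated replicate 2 the 2 falls with TNF plus WBG became 1.

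Small GTPases held the largest rises among the partners. Rnd1, which binds the intracellular part of plexins, had 9.41, 9.19 and 9.72 FPKM in TNF plus WBG libraries, 9.17, 11.6 and 9.90 FPKM in TNF libraries and 2.47, 2.88 and 2.87 FPKM in untreated libraries. All 6 treated libraries lay above the untreated ones, and the log2 fold change was 1.58 ± 0.09 with TNF (adjusted p = 7.66e-06) and 1.48 ± 0.09 with TNF plus WBG (adjusted p = 1.41e-05), both against untreated. Rras, a Ras-family GTPase switched off by plexins, had 38.6, 43.1 and 39.0 FPKM with TNF plus WBG, 33.9, 39.1 and 38.8 FPKM with TNF and 21.8, 25.2 and 18.0 FPKM untreated. Its log2 fold change against untreated was 0.76 ± 0.11 with TNF (adjusted p = 0.00247) and 0.87 ± 0.11 with TNF plus WBG (adjusted p = 0.00132). The related Rnd2, Rnd3, Rac1 and Rhoa were not called in any comparison. Of the 18 GTPases and regulators, 4 rose with TNF (22.2%, beside 6.43% of all genes) and 0 fell, beside 4.21% of all genes. The calls of 2 of these, Mras and Farp1, were lost without most single libraries, as given below. With TNF plus WBG against untreated, 2 of the 18 rose (11.1%, beside 5.52% of all genes) and 0 fell, beside 3.67%. In the largest subset, the 25 detected kinase and cytoskeletal genes, 1 rose (4%) and 1 fell (4%) with TNF, near the shares of all genes.

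Of the co-receptors, Flt1, a receptor for vascular endothelial growth factor, rose and Met and Nrcam fell with TNF. Flt1 had 4.01, 4.60 and 3.58 FPKM with TNF plus WBG, 3.73, 3.55 and 3.67 FPKM with TNF and 2.43, 3.06 and 2.30 FPKM untreated, with adjusted p of 0.0161 for TNF plus WBG and 0.048 for TNF against untreated. The first call was lost on leaving out replicate 1 or 3 of untreated, or 1 or 2 of TNF plus WBG (0.0505 to 0.0623), and the second without untreated replicate 1 or 3, any 1 of the TNF replicates or TNF plus WBG replicate 1 (0.0730 to 0.148). Met, the hepatocyte growth factor receptor that pairs with Plxnb1, had 18.4, 19.6 and 19.8 FPKM with TNF plus WBG, 22.0, 19.9 and 19.4 FPKM with TNF and 30.0, 24.8 and 27.2 FPKM untreated, with log2 fold changes against untreated of -0.48 ± 0.07 and -0.40 ± 0.07 (adjusted p = 0.00419 and 0.00971). Nrcam, an adhesion protein that associates with Nrp2, had 0.337, 0.423 and 0.460 FPKM with TNF plus WBG, 0.474, 0.315 and 0.389 FPKM with TNF and 1.55, 1.05 and 1.40 FPKM untreated. It passed the detection rule only through its untreated libraries, so its call (adjusted p = 0.00242 with TNF) is no independent sign. The immune partners Trem2, Tyrobp and Timd2 were listed at 0 in all 9 libraries. Vegfd, a growth factor of the vascular endothelial family, rose with TNF (log2 0.31 ± 0.08, adjusted p = 0.046), a call lost without any 1 of the 9 libraries (0.0580 to 0.140). It was also called higher with TNF plus WBG against untreated. That call was lost without untreated replicate 3 or TNF plus WBG replicate 2 or 3 (0.0518 to 0.0686). Vegfa, Vegfb and Vegfc were not called.

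All 4 listed proteases were above 15 FPKM in every library. Adam17, which sheds TNF from the cell surface, had 23.9, 23.9 and 21.0 FPKM with TNF plus WBG, 21.4, 20.8 and 22.6 FPKM with TNF and 15.4, 15.5 and 15.7 FPKM untreated, a log2 fold change of 0.45 ± 0.06 with TNF against untreated (adjusted p = 0.00136). Adam10, a related sheddase, fell by 0.19 with TNF (adjusted p = 0.0183), and Furin, which cleaves class 3 semaphorins, fell by 0.16 (adjusted p = 0.0426), both on the log2 scale against untreated. The focal-adhesion adaptor Pxn fell by 0.26 (adjusted p = 0.0212). These calls were lost for Adam10 on leaving out replicate 3 of untreated, or 1 or 3 of TNF (0.0621 to 0.0673), for Furin without any 1 library other than untreated replicate 3 (0.0531 to 0.127), and for Pxn on leaving out replicate 1 or 3 of untreated, or 3 of TNF (0.0513 to 0.0709). The other 3 genes called with TNF, named after their values were seen, were Mras, Farp1 and Myh9, which rose by a log2 of 0.27, 0.21 and 0.22. Adam17 and Myh9 were also called higher with TNF plus WBG against untreated. Both calls were kept with each library left out in turn (adjusted p of at most 0.00371 and 0.00854). The call of Mras was lost without any 1 library other than TNF replicate 3 (0.0583 to 0.136) and that of Farp1 without any 1 other than TNF plus WBG replicate 1 or 3 (0.0529 to 0.127). With no filter on low values the TNF calls of Flt1, Vegfd, Mras, Farp1, Pxn and Furin were lost (0.052 to 0.122). Exons of Adam17 overlap Iah1 on the opposite strand, and reads of the 2 genes cannot be told apart without strand.

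**Figure D4:**
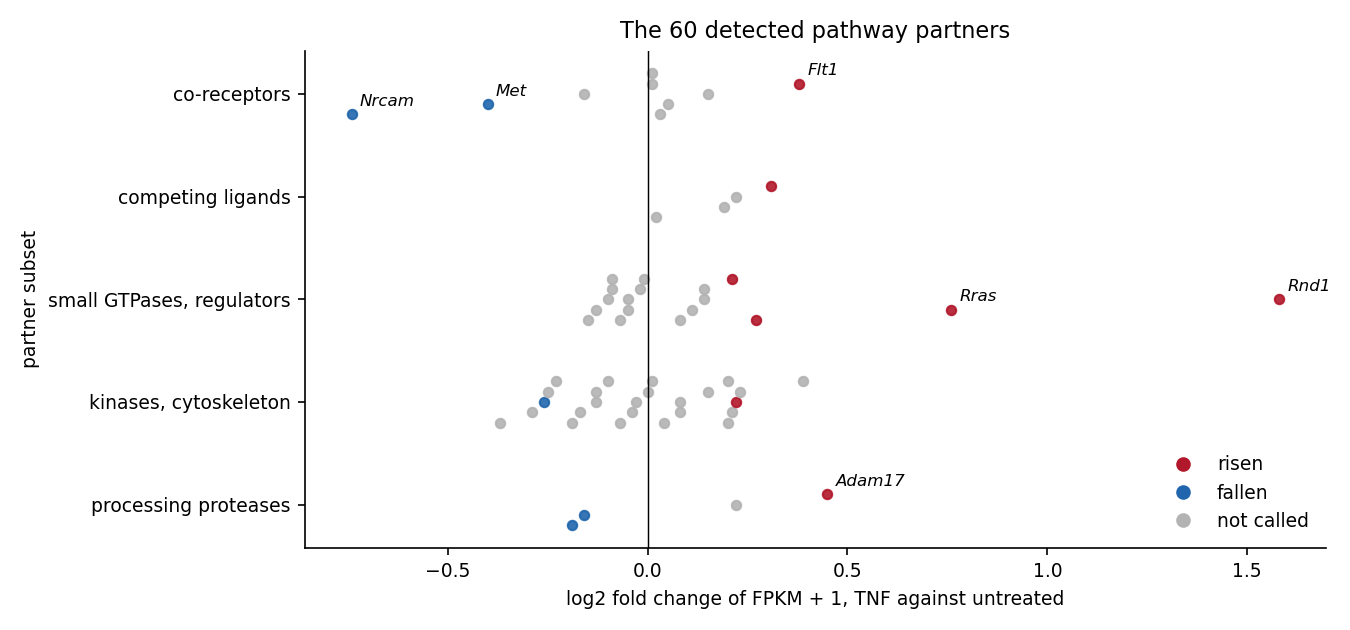
Log2 fold changes of FPKM + 1 for TNF against untreated in the 60 detected pathway partners, 1 point per gene, in rows by the partner's role. Rnd1 at 1.58 and Rras at 0.76 lie farthest to the right and Nrcam at -0.74 and Met at -0.40 farthest to the left. Nrcam was detected through its untreated libraries alone. Most of the 47 genes that did not pass the test lie near 0.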

How the data were processed

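Poly-A RNA of 9 libraries was sequenced as paired ends on an Illumina NovaSeq, per the labels' protocols. The values used are the FPKM of the gene table the authors deposited, 1 column per library and none pooled. No source used here names the aligner, the quantifier, the annotation or the build. Symbols came from GENCODE M21 for 55144 identifiers, and 1145 had none. The 13026 genes that reached 1 FPKM in 3 or more libraries were kept. Log2(FPKM + 1) was fitted with limma 3.58.1 (R 4.3.3, trend on expression), all 9 libraries in 1 fit with group as the only term, two-sided, with Benjamini-Hochberg adjustment over all genes kept and calls at an adjusted p under 0.05. The pseudocount makes log2 fold changes smaller than the ratio of FPKM for genes near 1 FPKM.

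Depth was inferred from the steps between FPKM values of single-exon genes: 20.9 to 23.7% lay within 0.02 of a whole step, against 4% for an even spread. No count was derived from it, so no counting interval is given.

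The members and lists were chosen with earlier results of these data known, among them the low Sema4f level with TNF. Values per library are given for members called in any comparison or reaching a group mean of 10 FPKM, with Sema6b added after its values were seen, and of the partners up to 5 called genes per direction are named in each comparison. The CCAAT box was added after the sequences were seen. No library was left out and no pair of libraries was identical. The fit was also run on data simulated from its own fitted means and spread. Those data meet the assumptions of the fit, so the run cannot show how it behaves on the deposited values. Alternatives were pseudocounts of 0.1 and 5, no filter, a minimum mean of 5 FPKM, median-ratio scaling, a fit of only the 6 libraries compared, robust limma, a replicate block and omission of each library in turn, and, added after seeing the data, counts and sums without Sema4f or Nrcam. Figures used python 3.11.15 and matplotlib 3.10.9, and promoters came from RefSeq.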

Additional observations from a re-analysis of the deposited data

How the results depend on the processing

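The counts of members called were the same within 1.5 times under pseudocounts of 0.1 and 5, no filter, a mean of at least 5 FPKM, median-ratio scaling, a fit of the 6 libraries compared, robust limma and the replicate block. With TNF against untreated, leaving out each library in turn gave 3 to 5 higher and 3 to 6 lower members, and with TNF plus WBG against untreated 3 to 4 higher and 5 to 7 lower. With TNF plus WBG against TNF 0 members were called under every alternative. The calls of Plxnb3, Sema3e, Plxnd1, Sema3b and Sema3c against untreated were kept in every alternative run, with adjusted p of at most 0.0172. Partners called higher with TNF, 8 in all, became 4 with no filter, 5 with the 6 libraries compared and 4 to 6 with a library left out. The 5 called lower became 2 to 4 with a library left out, and the 2 lower with TNF plus WBG against untreated became 1 with a mean of at least 5 FPKM, 1 without Nrcam (chosen after seeing the data) and 1 to 2 with a library left out.

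Of 1203 recomputed log2 fold changes of members, 1131 kept direction and side of the threshold, 52 lost the threshold, 2 gained it and 18 changed sign, each of them a difference that was not called. With a library left out, the sign changes gave ranges of -0.22 to 0.02 for Sema6c with TNF against untreated. Between TNF plus WBG and TNF the ranges were -0.12 to 0.00 for Sema3a, -0.00 to 0.06 for Sema3b, -0.05 to 0.00 for Sema3c, -0.22 to 0.11 for Sema4c, -0.09 to 0.08 for Sema5a and -0.04 to 0.02 for Sema6a. For TNF plus WBG against untreated they were -0.04 to 0.04 for Plxna1, -0.01 to 0.08 for Sema3f and -0.07 to 0.00 for Sema4d, and median-ratio scaling gave -0.00 for Plxna1. The cause was not tested.

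The labels do not say whether replicate numbers, which the groups share, pair the libraries. Deviations from the group means correlated at -0.072 to 0.107 in 9 pairs of the same number. In 18 pairs of different numbers they correlated at -0.096 to 0.095. With 3 libraries per group these values cannot decide whether the numbers mark pairs. With the replicate block, adjusted p was 0.0577 for Plxna2 and 0.0269 for Sema4g (log2 -0.35, not called without the block) with TNF against untreated, and 0.0739 for Plxnb1 and 0.0726 for Sema3a with TNF plus WBG against untreated. The block also ended the TNF calls of the partners Flt1 (0.0515), Vegfd (0.0799), Mras (0.0662), Farp1 (0.0645) and Furin (0.0888). With the 6 libraries compared, those of Flt1, Vegfd, Mras and Furin were lost (0.0619 to 0.0873), with median-ratio scaling those of Vegfd and Mras (0.0551 and 0.053) and with a pseudocount of 5 that of Flt1 (0.0534). With TNF plus WBG against untreated, Flt1 lost its call with the 6 libraries (0.0507) and Vegfd with the 6 and with no filter (0.0558 and 0.052). Nrp2 and Plxna2 also lost their TNF calls with no filter (0.0600 and 0.0689) and with the 6 libraries compared (0.0640 and 0.0693). With TNF plus WBG against untreated, Sema3a and Sema4b lost their calls with no filter (0.119 and 0.0983) and with the 6 libraries compared (0.0558 and 0.0805), and Plxnb1 with the 6 (0.0789). FPKM hold no counts, so no counting error is given.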
